A study of Mus musculus with 2 samples.

Results

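Levels and co-detection of 9 genes known to respond to glucocorticoids were described in single nuclei of mouse quadriceps muscle. The genes are Nr3c1, Fkbp5, Tsc22d3, Zbtb16, Sgk1, Arrdc2, Ddit4, Mt1 and Mt2, taken by symbol from the 53700 features of the deposited tables, and each symbol was found. The study set mice labelled PTRF knockout against WT mice, both of strain C57BL/6N and 3 months old, with 1 library of nuclei for each genotype. PTRF is the older name of Cavin1, a coat protein of caveolae, the small pits of the plasma membrane. The labels do not give the number or sex of the mice behind a library, or whether animals were pooled. The genes were chosen by their known role and with their knockout and WT levels in the same libraries already seen, so every difference between the genotypes below is a description of 2 libraries without a test, and its 95% interval covers counting error only.

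Glucocorticoids such as corticosterone bind the receptor encoded by Nr3c1, which waits in the cytoplasm in a complex with heat shock proteins and co-chaperones. The hormone-bound receptor enters the nucleus, binds palindromic response elements and raises or lowers transcription of nearby genes. In skeletal muscle the pathway is known for shifting fuel use and for protein breakdown during fasting, stress and steroid treatment. No hormone level or receptor binding was measured in the data used here, so the name of the group rests on this background.

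The knockout library held 7762 nuclei with a median of 1562 UMIs (molecules counted by their barcode), and the WT library 10272 nuclei with a median of 703 UMIs. Cavin1 itself had 2 UMIs in the knockout library and 75 UMIs in the WT library. Clusters were named from marker genes as X-like classes. Myonuclei-like nuclei, those of the muscle fibres, numbered 5524 in the knockout and 7898 in WT, and lay mostly in clusters 2, 0 and 8 in the knockout and in clusters 1, 8 and 6 in WT. A cluster led by long neuronal transcripts was left unnamed and held 0.94% of knockout and 15.4% of WT nuclei. Xist without Y-linked UMIs marked 1527 knockout nuclei and 2 WT nuclei, and Y-linked UMIs without Xist 3103 knockout and 2721 WT nuclei, so the knockout library held nuclei of both sexes. As a measure of free fibre RNA, Ttn, which encodes the giant sarcomere protein of fibres, stood at 16.0% to 29.6% of its myonuclear level in the 4 other compared classes of the knockout library, and at 30.8% to 60.1% in those of WT. The part of this free RNA in the levels of the members was not tested.

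In myonuclei-like nuclei Arrdc2, Fkbp5, Zbtb16 and Sgk1 were at least 2-fold lower in the knockout library than in WT. Tsc22d3 and the receptor gene Nr3c1 were higher, by less than 2-fold. Ddit4, Mt1 and Mt2 were close to absent from the myonuclei of either library. Of the 7 members with at least 20 UMIs over both libraries, 4 were at least 2-fold lower, where 24.8% of all 15488 genes with that many UMIs were, and 0 were at least 2-fold higher, where 4.49% of all genes were. The median log2 ratio, knockout over WT, was -1.24 over these 7 members and -0.12 over all genes.

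**Figure D1:**
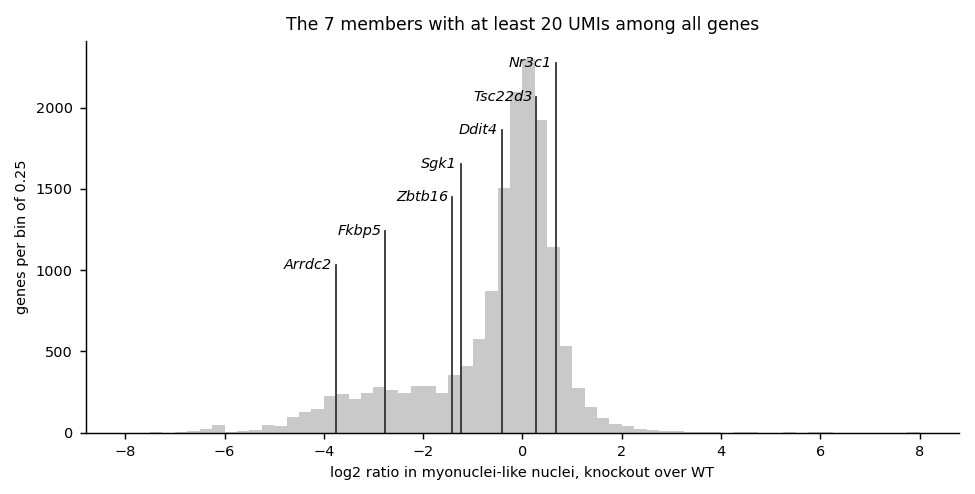
Histogram of the log2 ratio, knockout over WT, of all 15488 genes with at least 20 UMIs in myonuclei-like nuclei (bins of 0.25), with a line at each of the 7 members that passed that minimum; line heights carry no value. Arrdc2 at -3.76 and Fkbp5 at -2.76 lie in the long left shoulder, Zbtb16 and Sgk1 at its near edge, and Ddit4, Tsc22d3 and Nr3c1 in the main peak.

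Long genes lay further to the left in that distribution. With all genes split into 5 bins of near equal size by the annotated length of the gene, the median log2 ratio was 0.07 in the bin of the shortest genes, -0.06, -0.13 and -0.20 in the next ones, and -0.84 in the bin of the longest genes. The 10th and 90th percentiles were -3.84 and 0.53 in the longest bin and -0.99 and 1.08 in the shortest. Zbtb16 (182 kb), Fkbp5 and Sgk1 (118 kb each) and Nr3c1 (109 kb) belong to the longest bin, and the ratios of the first 3 lie between its percentiles while that of Nr3c1 lies above. Arrdc2, a gene of 4.59 kb, belongs to the shortest bin, and its ratio of -3.76 is far beneath the percentile of -0.99. The part of gene length in the ratios of Fkbp5, Zbtb16 and Sgk1 was not tested.

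The receptor gene Nr3c1 (ENSMUSG00000024431, chromosome 18, 39410545 to 39519421, minus strand, GRCm38) had 6913 UMIs or 547 CPM (the gene's UMIs scaled to the total UMIs of the class) in knockout myonuclei-like nuclei, and 2731 UMIs or 341 CPM in WT. The log2 ratio was 0.68 (0.62 to 0.75), and 90.6% of all genes had a lower one. Among fibre types, called by the leading myosin heavy chain gene of each nucleus (Myh4 for IIb, Myh1 for IIx, Myh2 for IIa), Nr3c1 stood at 575, 475 and 410 CPM in knockout type IIb, IIx and IIa nuclei and at 387, 229 and 322 CPM in the WT ones. It was thus highest in type IIb in both libraries, while IIx was above IIa in the knockout only as a point value (1.16-fold, 0.999 to 1.34) and below IIa in WT (0.711-fold, 0.592 to 0.854). The excess in the knockout was 2.07-fold in type IIx and 1.27-fold in type IIa. The type IIa value turned to a log2 ratio of -0.14 when every nucleus was thinned to 500 UMIs.

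Outside the fibres Nr3c1 was present in each class. Adipocyte-like nuclei had 609 CPM in the knockout and 272 CPM in WT, a log2 ratio of 1.15 (0.80 to 1.55), and mural-like nuclei (pericytes and smooth muscle) 523 CPM in the knockout and 206 CPM in WT. In fibro-adipogenic-like nuclei, the connective tissue progenitors of muscle, the values were 419 CPM in the knockout and 351 CPM in WT, and in macrophage-like nuclei 587 CPM in the knockout and 500 CPM in WT. The intervals of these last 2 ratios include 0 on the log2 scale.

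Fkbp5 (ENSMUSG00000024222, chromosome 17, 28399094 to 28517527, minus strand) encodes a co-chaperone of Hsp90 that lowers the receptor's affinity for hormone and is itself induced by the receptor, so that it serves as a feedback brake and a common readout of the pathway. It had 320 UMIs or 25.3 CPM in knockout myonuclei-like nuclei, against 1376 UMIs or 172 CPM in WT, which is 6.78-fold lower (6.01 to 7.69). In the 7 myonuclear clusters it ran from 19.5 to 41.5 CPM in the knockout library and from 111 to 230 CPM in WT. The share of all genes with ranges as far apart was not counted. By fibre type Fkbp5 stood at 25.7, 16.2 and 25.1 CPM in knockout type IIb, IIx and IIa nuclei and at 189, 122 and 74.1 CPM in the WT ones. In WT type IIb was 2.53-fold above IIa (1.94 to 3.43), and in the knockout these types were level (0.993-fold, 0.617 to 1.82). The log2 ratio in type IIa, -1.53 on 16 knockout and 54 WT UMIs, was -0.16 in Y-marked nuclei and -3.15 after thinning to 500 UMIs, so that its size is poorly fixed. Annotated genes overlap Fkbp5 on its own strand (AC154912.5, AC154912.3) and on the other (AC154912.1, Gm22146), so part of its UMIs may be of uncertain origin.

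Fibro-adipogenic-like nuclei had the highest Fkbp5 level of the compared classes in both libraries, as a point value. The level was 412 CPM (366 to 463) in the knockout library and 432 CPM (361 to 512) in WT, a log2 ratio of -0.07 (-0.37 to 0.24), or -0.35 relative to the median of all genes in that class. In WT the macrophage-like level of Fkbp5, 403 CPM (270 to 578), was close to it. The level of Fkbp5 in fibro-adipogenic-like over myonuclei-like nuclei was 16.3-fold (13.9 to 19.2) in the knockout and 2.52-fold (2.09 to 3.00) in WT. The close match between libraries did not hold in subsets: the log2 ratio in fibro-adipogenic-like nuclei was 0.99 when both libraries were limited to nuclei marked by Y-linked UMIs. It was -0.60 for Xist-marked knockout against Y-marked WT nuclei. Ttn stood at 29.6% of its myonuclear level in the knockout fibro-adipogenic-like nuclei and at 58.0% in the WT ones.

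Fkbp5 was lower in the knockout in macrophage-like and adipocyte-like nuclei. Macrophage-like nuclei had 149 CPM in the knockout and 403 CPM in WT, a log2 ratio of -1.43 (-2.23 to -0.64). Adipocyte-like nuclei had 52.3 CPM in the knockout and 155 CPM in WT, a ratio of -1.58 (-2.12 to -0.98) that was 0.09 in Y-marked nuclei alone. Mural-like nuclei had 160 CPM in the knockout and 154 CPM in WT, on 11 and 9 UMIs. Lymphatic endothelial-like nuclei of the knockout held 235 CPM (183 to 298), with only 29 such nuclei in WT for comparison. In the knockout library every compared non-muscle class was above the myonuclei, whereas in WT adipocyte-like and mural-like nuclei lay within the counting error of the myonuclear level.

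**Figure D2:**
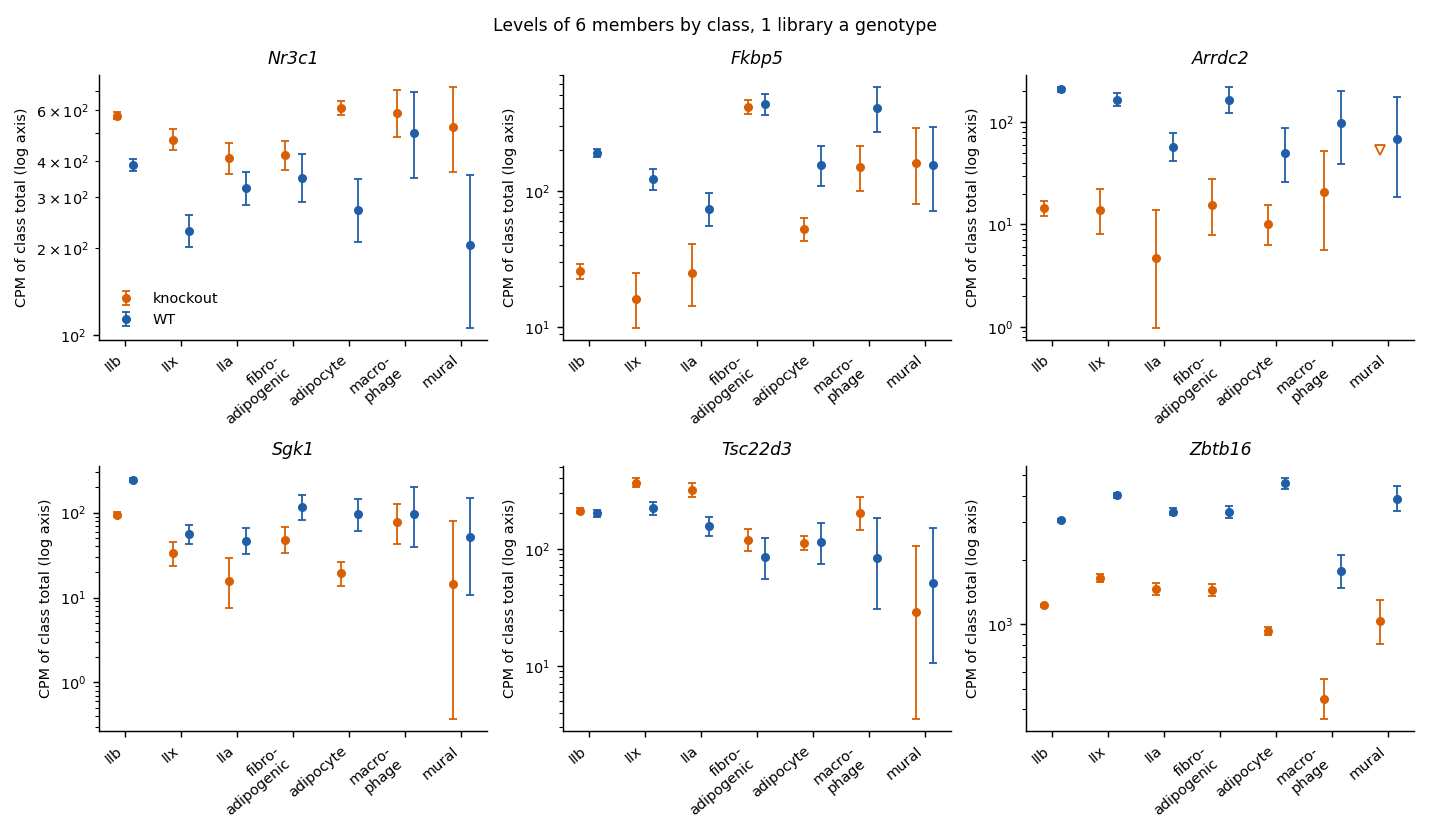
CPM of the class total (log axis) of 6 members in 3 fibre types and 4 non-muscle classes, knockout (orange) left of WT (blue), 1 library each; bars are exact 95% Poisson intervals, and an open triangle marks the upper limit where no UMI was found. Fkbp5 is level with WT in fibro-adipogenic nuclei and well below it in every fibre type, whereas Arrdc2 is lower in each class with UMIs in both libraries.

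Tsc22d3 (ENSMUSG00000031431, chromosome X, 140539528 to 140600659, minus strand) encodes GILZ, a leucine zipper protein that carries much of the anti-inflammatory action of glucocorticoids and is one of their best known direct targets. Myonuclei-like nuclei had 2958 UMIs or 234 CPM in the knockout and 1538 UMIs or 192 CPM in WT, a log2 ratio of 0.28 (0.20 to 0.37). By fibre type the levels were 211, 366 and 316 CPM in knockout type IIb, IIx and IIa nuclei, and 200, 221 and 155 CPM in the WT ones. In type IIb nuclei the log2 ratio was 0.08, with an interval of -0.04 to 0.19 that includes 0 (-0.04 when scaled without the most abundant transcripts), and the excess of the knockout lay in type IIx (0.73, 0.50 to 0.96) and type IIa (1.02, 0.69 to 1.37). The order of fibre types differed too: in the knockout IIb was the lowest, at 0.667-fold of IIa (0.578 to 0.777), and in WT it was 1.29-fold above IIa (1.06 to 1.58). Adipocyte-like nuclei held 112 CPM in the knockout and 113 CPM in WT, and macrophage-like nuclei 201 CPM in the knockout and 83.3 CPM in WT, with only 6 UMIs behind the WT value.

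Zbtb16 (ENSMUSG00000066687, chromosome 9, 48654297 to 48836222, minus strand) encodes PLZF, a zinc finger transcription factor that is strongly induced by glucocorticoids in many cell types. Its UMIs were numerous enough to compare every class. Myonuclei-like nuclei had 1302 CPM in the knockout (16459 UMIs) and 3454 CPM in WT (27668 UMIs), which is 2.65-fold lower (2.60 to 2.71). The log2 ratio was -1.32, -1.28 and -1.20 in type IIb, IIx and IIa nuclei, -1.22 in fibro-adipogenic-like, -1.99 in macrophage-like, -1.90 in mural-like and -2.30 in adipocyte-like nuclei. Zbtb16, Nr3c1 and Fkbp5 each had at least 20 UMIs in all 7 of these classes. Of these members only Zbtb16 was more than 2-fold lower in all 7. Fkbp5 was at -0.07 in fibro-adipogenic-like and 0.04 in mural-like nuclei, and Nr3c1 was above 0 as a point value in all 7. In subsets of marked nuclei 3 of the log2 ratios of Zbtb16 came short of 2-fold. These were type IIx (-0.95) and fibro-adipogenic-like (-0.88) with Y-marked nuclei alone, and type IIa (-0.98) for Xist-marked knockout against Y-marked WT nuclei. The fibro-adipogenic-like ratio was -2.0 for Xist-marked knockout against Y-marked WT nuclei. Across these classes knockout values ran from 448 CPM in macrophage-like to 1653 CPM in type IIx nuclei, and WT values from 1778 CPM in macrophage-like to 4562 CPM in adipocyte-like nuclei.

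Sgk1 (ENSMUSG00000019970, chromosome 10, 21882184 to 21999903, plus strand) encodes a serine/threonine kinase related to Akt that acts on ion channels and on FoxO factors and helps to hold muscle mass. It had 1034 UMIs or 81.8 CPM in knockout myonuclei-like nuclei and 1552 UMIs or 194 CPM in WT, 2.37-fold lower (2.19 to 2.57). The difference was smaller, with a log2 ratio of -0.73 in place of -1.24, when only nuclei with at least 500 genes were kept, which leaves 3 rather than 4 members past 2-fold. Of the 6 abundant members, Sgk1 had the largest ratio of type IIb over IIa in both libraries. Its levels were 94.7, 33.2 and 15.7 CPM in knockout type IIb, IIx and IIa nuclei and 242, 56.4 and 46.6 CPM in the WT ones. Type IIb was 5.74-fold above IIa in the knockout (3.26 to 12.6) and 5.11-fold above it in WT (3.69 to 7.52), while IIx over IIa was 2.04-fold (1.04 to 4.73) in the knockout and 1.20-fold (0.782 to 1.90) in WT. Among other classes, Sgk1 was 19.4 CPM in knockout and 96.2 CPM in WT adipocyte-like nuclei, and 48.3 CPM in knockout and 117 CPM in WT fibro-adipogenic-like nuclei. The WT fibro-adipogenic-like value was 60.3% of the myonuclear level of Sgk1, beside 58.0% for Ttn, and the knockout one 59.1%, beside 29.6% for Ttn. The part of free fibre RNA in these Sgk1 levels was not tested. The adipocyte-like log2 ratio, -2.33, was -3.39 with each library clustered on its own and -3.25 for Xist-marked knockout against Y-marked WT nuclei, and the fibro-adipogenic-like one, -1.27, was -2.12 after thinning.

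The promoter of Sgk1 is shown because of the 7 members with an entry in the RefSeq promoter table it alone held the full palindrome that the receptor binds, AGAACA and TGTTCT with any 3 bases between them. RefSeq lists 6 start sites for Sgk1 on GRCm38.p6, and the palindrome lies in the 250 bases before one of them, at chr10:21993640-21993889 on the plus strand, where it begins 189 bases before the start. This window lies inside the annotated gene, with no exon or UTR base in it. Capitals mark each AGAACA or TGTTCT, the arms of the palindrome:
Sgk1: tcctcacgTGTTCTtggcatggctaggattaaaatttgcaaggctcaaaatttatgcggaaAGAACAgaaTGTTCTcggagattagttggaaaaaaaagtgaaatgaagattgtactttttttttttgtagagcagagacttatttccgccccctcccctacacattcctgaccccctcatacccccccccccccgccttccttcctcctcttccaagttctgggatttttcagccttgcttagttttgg

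The same palindrome, read on both strands, stood in 3 of the 32851 promoter windows of that length in the table, or 0.00913%, and a lone arm on either strand in 16.1% of them. The 7 members had 14 start sites in all. The windows of Sgk1 held 5 arms, those of Tsc22d3 held 1, and those of Arrdc2, Fkbp5, Ddit4, Mt1 and Mt2 held 0. A match of letters is a description and does not mark a bound site, and receptor sites of such genes often lie in introns or far upstream, outside these windows.

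Arrdc2 (ENSMUSG00000002910, chromosome 8, 70835129 to 70839720, minus strand) encodes an arrestin-domain protein of the family of Txnip, adaptors that steer membrane proteins to ubiquitin ligases. It is a short gene with no overlapping annotation, and it showed the largest difference of the members. Myonuclei-like nuclei held 178 UMIs or 14.1 CPM in the knockout and 1527 UMIs or 191 CPM in WT, 13.5-fold lower (11.6 to 15.9), and 5.01% of all genes had a lower ratio. In type IIb, IIx and IIa nuclei the levels were 14.4, 13.8 and 4.71 CPM in the knockout, the last on 3 UMIs, and 208, 165 and 57.6 CPM in WT. WT type IIb was 3.57-fold above IIa (2.65 to 5.04) and 1.25-fold above IIx (1.07 to 1.48). In the knockout type IIb over IIx was 1.02-fold (0.632 to 1.85), and IIb was 2.63-fold above IIa with a wide interval whose lower bound was 1.03. The order of the 3 types was thus not resolved in the knockout, where IIx over IIa was 2.58-fold with an interval from 0.845 to 15.6. The log2 ratios of knockout over WT were -3.85, -3.55 and -3.41 for IIb, IIx and IIa. They were smaller in size in some alternatives: -2.55 for IIx after thinning to 500 UMIs, and -3.03 for IIb and -2.64 for IIx for Xist-marked knockout against Y-marked WT nuclei.

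Because Arrdc2 was among the leading genes of myonuclear cluster 6, which was mostly of WT nuclei, its level was also read in each myonuclear cluster. Over the 7 clusters it ran from 3.84 to 24.9 CPM in the knockout and from 111 to 234 CPM in WT. The share of all genes with such ranges was not counted here either. In cluster 8, with 1250 knockout and 2294 WT nuclei, the levels were 10.6 CPM in the knockout and 142 CPM in WT. The count of members past 2-fold was 4 as well when the 9 genes were left out of the clustering. In the unnamed cluster no Arrdc2 UMI was found in 73 knockout nuclei, for which the upper 95% limit is 49.2 CPM (3 UMIs would be 40.0 CPM), against 259 CPM in WT.

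Arrdc2 was lower in the knockout in other classes too. Fibro-adipogenic-like nuclei held 15.6 CPM in the knockout and 166 CPM in WT, and adipocyte-like nuclei 10.2 CPM in the knockout and 50.2 CPM in WT. In WT these were 86.8% and 26.3% of the myonuclear level of Arrdc2, where the free RNA measure, Ttn, stood at 58.0% and 30.8%. The WT adipocyte-like value rests on 12 UMIs, and its interval, 0.136 to 0.461 of the myonuclear level, includes the share of Ttn. In the knockout the same classes were at 111% and 72.2% of the myonuclear level of Arrdc2, above the Ttn shares of 29.6% and 16.6%, but on 11 and 21 UMIs.

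The promoter windows of Arrdc2 and Fkbp5, the 2 members with the largest differences in myonuclei, are given as the contrast to that of Sgk1. Neither holds an arm of the palindrome, so both are in lower case throughout. Each ends at the base before its RefSeq start site and is written 5′ to 3′ in the sense of the gene, from chr8:70839721-70839970 and chr17:28486150-28486399 on the minus strand of GRCm38.p6, the second window inside an intron of the annotated gene:
Arrdc2: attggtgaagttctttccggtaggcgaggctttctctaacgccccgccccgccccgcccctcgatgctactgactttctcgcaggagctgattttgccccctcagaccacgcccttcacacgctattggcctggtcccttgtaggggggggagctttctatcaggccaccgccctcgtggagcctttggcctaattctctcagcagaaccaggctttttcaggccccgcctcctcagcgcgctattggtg
Fkbp5: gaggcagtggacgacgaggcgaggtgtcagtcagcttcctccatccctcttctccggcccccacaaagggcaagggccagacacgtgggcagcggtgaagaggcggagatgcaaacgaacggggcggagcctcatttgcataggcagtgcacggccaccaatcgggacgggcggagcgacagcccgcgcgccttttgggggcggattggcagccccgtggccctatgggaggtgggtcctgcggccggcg

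Ddit4 (ENSMUSG00000020108, chromosome 10, 59949669 to 59951834, minus strand) encodes REDD1, an inhibitor of the growth kinase mTORC1. It was barely detected, with 12 UMIs in knockout and 10 UMIs in WT myonuclei-like nuclei, or 0.949 and 1.25 CPM, and the interval of its log2 ratio of -0.41 ran from -1.73 to 0.97. A 2-fold lower level in the knockout lay within that interval and a 2-fold higher one just beyond its edge, so the direction was not resolved at this depth.

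Mt1 (ENSMUSG00000031765, chromosome 8, 94179082 to 94180327, plus strand) and Mt2 (ENSMUSG00000031762, chromosome 8, 94172664 to 94173568, plus strand) are neighbouring genes of metallothioneins, small proteins that bind zinc and copper and respond to metals as well as to glucocorticoids. In myonuclei-like nuclei Mt1 had 8 UMIs in the knockout and 6 UMIs in WT, and Mt2 had 2 UMIs in the knockout and 5 UMIs in WT. Both were mostly found in adipocyte-like nuclei of the knockout library: these held 22 of the 36 UMIs of Mt1 and 20 of the 27 UMIs of Mt2 in that library. The level there was 10.7 CPM of Mt1 and 9.68 CPM of Mt2, against 0.633 and 0.158 CPM in the myonuclei of the same library. WT adipocyte-like nuclei had 2 UMIs of Mt1 (8.36 CPM) and 1 UMI of Mt2 (4.18 CPM), and the log2 ratios of 0.06 (-1.68 to 3.48) and 0.66 (-1.43 to 6.58) leave the direction unresolved. Over all nuclei together both genes were more than 2-fold higher in the knockout, with log2 ratios of 1.22 (0.20 to 2.52) for Mt1 and 1.15 (-0.01 to 2.67) for Mt2. Adipocyte-like nuclei made up 14.1% of the knockout library and 2.3% of WT. The window before the start of Mt2 held 3 matches to the core of a metal response element, TGCGCNC or TGCACNC on either strand, and that of Mt1 held 1, where 21.4% of all windows held at least 1. An annotated gene, Gm45774, overlaps Mt2 on the opposite strand.

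**Figure D3:**
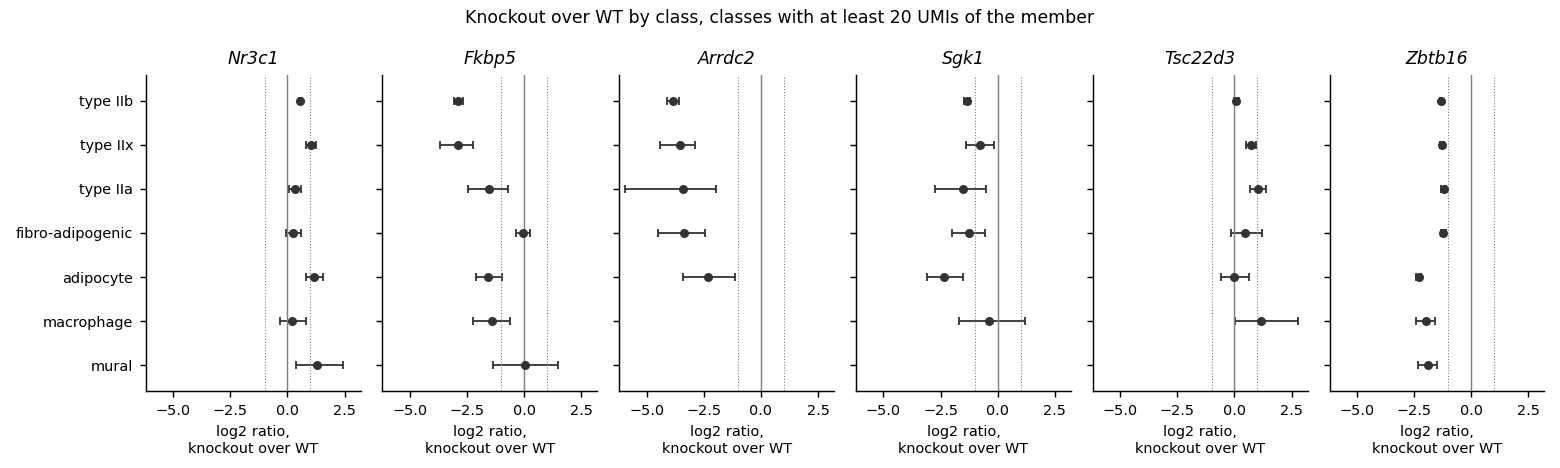
Log2 ratio, knockout over WT, of 6 members in 7 classes, for classes where the member had at least 20 UMIs over both libraries; bars are exact 95% intervals for counting error, and dotted lines mark 2-fold. Zbtb16 is left of the 2-fold line in all 7 classes, Fkbp5 sits at 0 in fibro-adipogenic and mural nuclei, and Nr3c1 is right of 0 throughout, though at -0.03 in fibro-adipogenic and -0.02 in macrophage nuclei once centred on the median of all genes.

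Counts over classes were read beside their background. In type IIb nuclei 4 of 6 members with enough UMIs were at least 2-fold lower in the knockout (19.2% of all genes) and 0 higher (4.93%). In type IIx nuclei 3 were lower (6.2% of all genes) and Nr3c1 was higher (6.49%), and in type IIa nuclei 4 were lower (5.03%) and Tsc22d3 was higher (8.53%). Fibro-adipogenic-like nuclei had 3 of 6 members lower (6.66%) and 0 higher (15.5%). Adipocyte-like nuclei had 4 of 8 lower (11.1%) and Nr3c1 higher (17%). Macrophage-like nuclei had 2 of 5 lower (4.83%) and Tsc22d3 higher (15.6%), and mural-like nuclei Zbtb16 lower (10.2%) and Nr3c1 higher (22.7%) among 3. In myonuclei-like nuclei whose fibre type could not be called 4 of 6 were lower (14.2%) and 0 higher (8.03%). Over all nuclei of a library, classes ignored, 4 of 9 were lower (21.1%) and Mt1 and Mt2 higher (8.51%), and in the unnamed cluster 4 of 6 were lower (16.3%) and 0 higher (16.6%). In every class named here the lower members were drawn from Arrdc2, Fkbp5, Zbtb16 and Sgk1. Most calls of a higher member came short of 2-fold in some alternatives. The log2 ratios ran from 0.85 to 1.36 (Nr3c1, type IIx), 0.65 to 1.42 (Tsc22d3, type IIa), 0.66 to 1.27 (Tsc22d3, macrophage-like) and 0.93 to 1.35 (Nr3c1, mural-like). Nr3c1 in adipocyte-like nuclei stayed past 2-fold (1.01 to 1.18).

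Since the 2 libraries differed in the sexes they held, the members were also read in myonuclei-like nuclei marked by 1 sex. Arrdc2 stood at 18.2 CPM in Xist-marked knockout nuclei, at 12.1 CPM in Y-marked knockout nuclei and at 154 CPM in Y-marked WT nuclei. Fkbp5 stood at 14.7, 27.8 and 155 CPM in the same order, Sgk1 at 45.9, 83.4 and 170 CPM, and Zbtb16 at 1082, 1317 and 2960 CPM. All 4 were lower in both groups of knockout nuclei than in Y-marked WT nuclei, each by at least 2-fold. Within the knockout library the marked groups differed from each other for Sgk1, with a log2 ratio, Xist-marked over Y-marked, of -0.85 (-1.29 to -0.46), and for Fkbp5, with -0.88 (-1.73 to -0.21). Zbtb16 differed less, at -0.28 (-0.37 to -0.2). Tsc22d3 and Nr3c1 went the other way, at 0.39 (0.22 to 0.56) and 0.16 (0.04 to 0.27). For Arrdc2 the interval included 0 (0.62, -0.16 to 1.29). Sex and animal cannot be told apart within the knockout library. Of its 1527 Xist-marked and 3103 Y-marked nuclei, 589 and 2790 were myonuclei-like. Outside the myonuclei most marked knockout nuclei thus carried Xist, whereas marked WT nuclei were almost all Y-marked. The part of sex in the knockout over WT ratios of the other classes was not tested.

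**Figure D4:**
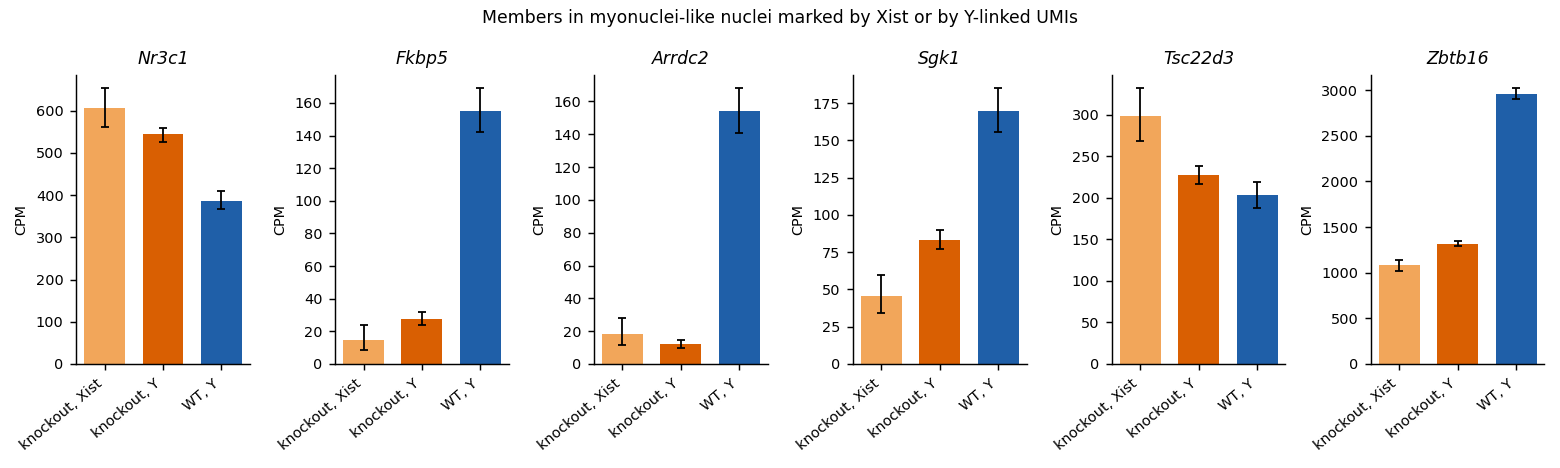
CPM of 6 members in myonuclei-like nuclei with Xist and no Y-linked UMI (knockout), and with Y-linked UMIs and no Xist (knockout and WT); bars carry exact 95% Poisson intervals. The 2 knockout bars of Fkbp5, Arrdc2, Sgk1 and Zbtb16 lie below the WT bar, and those of Nr3c1 and Tsc22d3 above it.

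To compare how many nuclei carried a member, each nucleus was thinned to 500 UMIs, which left out 2055 WT nuclei and 0 knockout nuclei as too shallow. Among myonuclei-like nuclei an Arrdc2 UMI was found in 0.905% (0.673 to 1.19) of 5524 knockout nuclei and in 9.22% (8.52 to 9.94) of 6511 WT nuclei. Without thinning the shares were 3.06% in the knockout and 16.1% in WT. The thinned share of Arrdc2 in adipocyte-like nuclei was 0.73% (0.316 to 1.43) in the knockout and 2.4% (0.785 to 5.52) in WT, and in the knockout the myonuclear share lay within that interval. For Fkbp5 the thinned myonuclear shares were 1.19% in the knockout and 8.28% in WT, for Sgk1 4.07% and 9.05%, and for Zbtb16 44.6% and 77.6%. Tsc22d3 was found in 10.2% of knockout and 8.23% of WT nuclei, and Nr3c1 in 22.4% of knockout and 14.2% of WT nuclei. By fibre type, Sgk1 reached 4.64%, 2.27% and 1.13% of knockout type IIb, IIx and IIa nuclei and 11.1%, 2.71% and 2.56% of the WT ones, so the intervals of the libraries were apart in type IIb and overlapped in IIx and IIa.

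**Figure D5:**
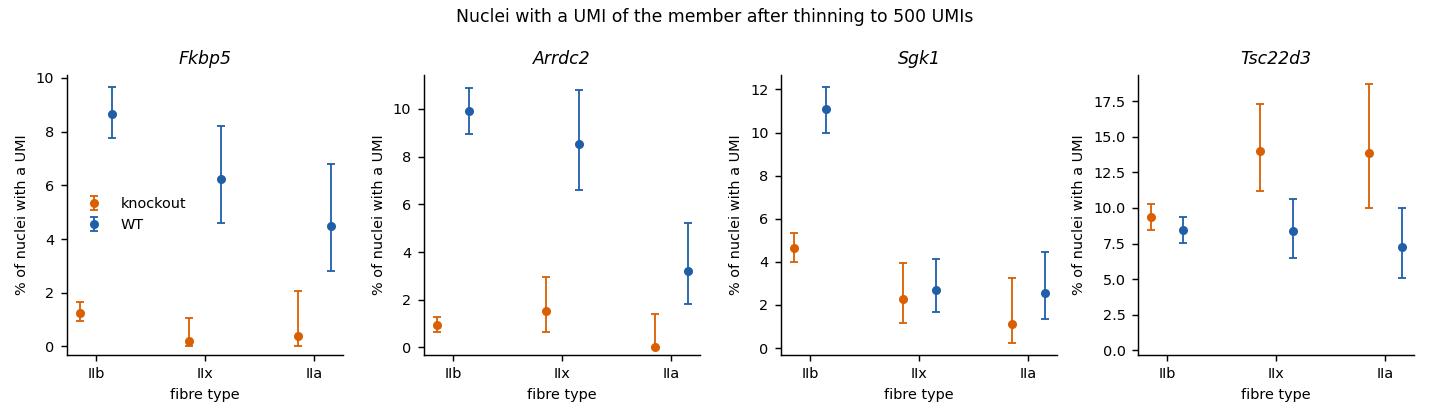
Percent of nuclei with a UMI of Fkbp5, Arrdc2, Sgk1 or Tsc22d3 by fibre type, after thinning to 500 UMIs, knockout (orange) left of WT (blue); bars are exact 95% binomial intervals. Arrdc2 was found in 0 of 266 knockout type IIa nuclei and in 3.21% of the WT ones, and Tsc22d3 is higher in knockout type IIx nuclei (14.0%) than in WT (8.39%).

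Co-detection was weak. Of the 15 pairs among the 6 abundant members, 0 in knockout and 2 in WT myonuclei-like nuclei had a higher share of nuclei with the partner among those with the member than among those without, with intervals that do not overlap. The first was Sgk1 and Fkbp5: a Fkbp5 UMI was found in 11.5% (9.08 to 14.4) of 589 WT nuclei with Sgk1 and in 7.95% (7.28 to 8.67) of those without it. The other was Fkbp5 and Zbtb16, with Zbtb16 in 84.0% (80.7 to 87.0) of WT nuclei with Fkbp5 and in 77.0% (75.9 to 78.0) of those without. Within type IIb nuclei alone 0 pairs in the knockout and 3 in WT were above, namely Arrdc2, Sgk1 and Fkbp5, each with Zbtb16. Sgk1 and Fkbp5 were not apart there: in WT type IIb nuclei Fkbp5 was found in 11.2% (8.23 to 14.7) with Sgk1 and 8.36% (7.42 to 9.37) without. The count in WT myonuclei-like nuclei was not stable, since another random draw of the thinning gave 5 pairs. At least 2 of Arrdc2, Sgk1 and Fkbp5 were found in 5 of the 5524 knockout nuclei. In WT, 162 nuclei of 6511 held 2 of the 3 and 11 held all 3. Each of the 3 genes was itself found in a smaller share of knockout nuclei, and the counts expected from these shares were not computed. With Arrdc2 in only 50 and Fkbp5 in only 66 thinned knockout nuclei, an excess in their pairs could hardly have been seen. For the receptor gene and Arrdc2 the intervals overlapped: in WT, Arrdc2 was found in 9.82% (7.98 to 11.9) of nuclei with an Nr3c1 UMI and in 9.12% (8.37 to 9.90) of those without.

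Genes that shared nuclei with Arrdc2 or Fkbp5 were ranked by the lower bound of their enrichment. In WT nuclei with Arrdc2 the first was Per1, a clock gene and a known glucocorticoid target, with 27 UMIs in 600 nuclei with Arrdc2 and 105 UMIs in 5911 nuclei without it, a log2 ratio of 1.36 (0.67 to 1.96). It was followed by Brinp3, Creg1, Rxrg, H2az2, Parm1, Trub1 and Atp5j2. In WT nuclei with Fkbp5 the list was Pcyt2, Tgfbr3, Stk24, Actr10, Ptk2, Parm1, Pak5 and Bicc1, with log2 ratios of 0.83 to 1.69. Parm1 stood in both WT lists, and no gene stood in both a knockout and a WT list. The overlap that such short lists would have by chance was not computed. Neither point is thus shown to mark a likeness of the members or a difference between the libraries. With only 50 knockout nuclei with Arrdc2 and 66 with Fkbp5, the knockout lists rested on 4 to 9 UMIs a gene. They were Max, Piwil2, Zfat, Cpsf6, Fbxo8, Pus7, Agap3 and Tnfrsf21 for Arrdc2, and Naaladl2, Cct8, Dtnb, Runx1, Mpp3, Wwp2, Sox5 and Arid4a for Fkbp5. Intervals that excluded 0 on the high side were found for 1.68% of 4769 genes in knockout and 3% of 5401 genes in WT nuclei with Arrdc2, and for 1.99% in knockout and 3.09% in WT nuclei with Fkbp5. The shares to be found without any enrichment were not computed, so the ranked genes are a description and are not shown to go with Arrdc2 or Fkbp5.

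Genes of most similar pattern were sought over 17 units, each 1 class of 1 library, by the correlation of log2(CPM + 1) among 5068 genes. The units share libraries, depth and free RNA, so the values are descriptions. Arrdc2 was closest to Cntn5 (Pearson r = 0.935), Agbl4 and Hrc, Sgk1 to Cyp27a1 (r = 0.913), Pla2g7 and Tfcp2l1, and Fkbp5 to Phactr1 (r = 0.932), Lsamp and Mir6236. Tsc22d3 was closest to Lrpprc (r = 0.929), Usp53 and Itgb6, Zbtb16 to Psmd7 (r = 0.881), Lars2 and Cntnap5b, and Nr3c1 to Ptbp2 (r = 0.875), Creb1 and Nipa2. Among the members themselves r was highest for Arrdc2 and Sgk1, at 0.82, and for Arrdc2 and Zbtb16, at 0.71. It was lowest for Zbtb16 and Nr3c1, at -0.878, and for Arrdc2 and Nr3c1, at -0.605.

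Other genes, on lists drawn around the pathway, differed in direction by list. Every gene at least 2-fold lower was on the list of receptor and steroid handling (2 of 14) or of glucocorticoid targets (6 of 35). Neither list reached the share of 24.8% that was lower among all genes. Those lists held 0 and 3 genes at least 2-fold higher, and the list of adrenergic and cAMP responses held 4. Of 75 counted genes on 7 lists, members left out, 8 were at least 2-fold lower in knockout myonuclei-like nuclei and 10 at least 2-fold higher, beside 24.8% and 4.49% of all genes, and the median log2 ratio was 0.10. Among 14 genes of the receptor complex and steroid handling 2 were lower and 0 higher. These were Hsd11b1, the enzyme that regenerates active glucocorticoid in tissue, at 0.554 CPM in the knockout and 4.37 CPM in WT (7 and 35 UMIs, log2 ratio -2.90), and Abcb1a, a steroid exporter, on 9 and 33 UMIs (-2.48). The highest was the co-chaperone gene Stip1 at 0.62. Nr3c2, the mineralocorticoid receptor, stood at 0.26.

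Among 35 further glucocorticoid targets, 6 were lower and 3 higher, with a median of -0.08. The lowest were Il6ra, a cytokine receptor subunit (-2.76), and Foxo1, a factor that drives atrophy genes (-1.41), and Pdk4, which curbs glucose oxidation, was at -1.26. The highest were Cebpb (1.26), a transcription factor, and Rhob (1.05), a small GTPase, with 24 knockout and 7 WT UMIs for Rhob. Of other genes on that list, Per1 was at 0.06, Klf9 at -0.17, and the atrophy ubiquitin ligase genes Fbxo32 and Trim63 at -0.08 and 0.35. In the arrestin-domain family 0 of 4 relatives of Arrdc2 were past 2-fold lower and 1 was higher, with Arrdc1 at -0.66 on 26 UMIs in each library, Arrdc3 at 0.11, Txnip at 0.09 and Arrdc4 at 1.76 (1.24 to 2.36).

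In the list of Sgk kinases and mTORC1 brakes 0 of 9 genes were lower and 1, Ddit4l, the relative of Ddit4, was higher (1.10, 112 CPM in the knockout and 52.3 CPM in WT), with Tsc2 lowest at -0.53 and Nedd4l, a ubiquitin ligase that Sgk1 restrains, at 0.64. In the TSC22 family 1 of 3 relatives of Tsc22d3 was higher, Tsc22d2 at 1.24, beside Tsc22d1 at -0.67 and Tsc22d4 at -0.21. Of 3 counted genes of zinc handling 0 were past 2-fold, with the metal sensor Mtf1 at 0.01, Slc39a14 at 0.33 and Slc39a10 at 0.61. Of the genes that respond to adrenergic and cAMP signals 4 of 7 were higher and 0 lower, led by the orphan receptors Nr4a3 (4.33) and Nr4a2 (2.81), with Ppargc1a at 0.14 and Crem at 0.27 the lowest.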

How the data were processed

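Single-nucleus RNA was read as UMI counts, whole numbers per gene and barcode, deposited without normalisation. Cell Ranger 6.0.0 made the tables, per the file headers. STAR, Seurat 4.1.1, mm10 and GRCm38 are named in the submitters' processing notes. How introns, strand and empty barcodes were handled is not stated in those sources, and long genes gain UMIs where introns are counted. The knockout table summed to 16052317 UMIs and the WT table to 9746980 UMIs, with 24 barcode sequences in common.

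Nuclei with fewer than 200 genes or over 5% mitochondrial UMIs were dropped, leaving 7762 of 7766 knockout and 10272 of 10280 WT barcodes. No doublet caller was run and doublets stayed in: UMIs of Xist and of a Y-linked gene stood together in 221 knockout and 2 WT nuclei. The libraries were clustered together in scanpy 1.11.5 (2000 variable genes, 30 principal components, 15 neighbours, Leiden resolution 1, seed 7), which gave 13 clusters. Naming a class took a marker score of at least 2 and at least 3 detected markers, cut-offs set with the data known. Fibre types needed at least 2 UMIs of the 4 myosin isoforms and 1 leading isoform.

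UMIs were summed per class and library. Ratios of CPM have 0.5 UMI added to each sum and exact conditional binomial intervals. Levels have exact Poisson and shares exact binomial (Clopper-Pearson) intervals, at 95%. With 1 library a genotype there was no test. A gene was counted at 20 or more UMIs over both libraries, and a class was compared at 50 or more nuclei in each. The ratio code was tested on simulated counts. Gene coordinates and lengths are from GENCODE (GRCm38) and promoters from RefSeq (GRCm38.p6). The members and lists were chosen with earlier results of these data known. Beside the members, the text names the 3 genes of most similar pattern, the 8 leading genes of the same nuclei, and the 2 lowest and 2 highest of each list, members included. Abcb1a, Nr3c2, Pdk4, Per1, Klf9, Fbxo32, Trim63 and Txnip were named outside that rule, after their values were seen.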

Additional observations from a re-analysis of the deposited data

How the results depend on the processing

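The number of members at least 2-fold lower in knockout myonuclei-like nuclei was 4 under most alternatives, 3 with at least 500 genes per nucleus and 5 with no minimum of UMIs. Fkbp5 in type IIx nuclei was -4.53 after thinning, in place of -2.88. The number at least 2-fold higher, 0 in the analysis reported, was 1 with each library clustered on its own and 2 over all nuclei without clusters (Mt1 and Mt2). Over all nuclei 5 pathway list genes were lower and 16 higher, in place of 11 and 10 with members included. Pairs of members found together in WT numbered 5 when nuclei were thinned to 1000 UMIs and 5 with another seed, in place of 2. The cause was not tested. Of the 677 single-member ratios under alternatives, 579 stayed within the interval of the reported value and 96 moved out of it. The remaining 2 reversed a sign whose interval excluded 0. In all, 23 changed sign, 21 of them from a value whose interval includes 0 (among these Fkbp5, Tsc22d3 and Nr3c1 in fibro-adipogenic-like nuclei and Tsc22d3 in type IIb nuclei). The other 2 were Nr3c1 in type IIa nuclei, at -0.14 after thinning to 500 UMIs, and Fkbp5 in adipocyte-like nuclei, at 0.09 in Y-marked nuclei. In myonuclei-like nuclei the ranges over 16 alternatives were -3.88 to -3.05 for Arrdc2, -3.36 to -1.83 for Fkbp5, -1.88 to -0.73 for Sgk1, -1.53 to -1.17 for Zbtb16, 0.15 to 0.56 for Tsc22d3 and 0.49 to 0.80 for Nr3c1. Centring on the median of all genes, -0.12 in myonuclei-like nuclei, left 4 members past 2-fold lower. In type IIa nuclei Fkbp5 ran from -3.15 (thinned) to -0.16 (Y-marked), on 24 and 27 UMIs. Members with few UMIs (Ddit4, Mt1, Mt2) are limited by depth. No paired analysis was possible because there is 1 library a genotype.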
